A study of Mus musculus with 5 samples.

Results

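Hepcidin and 9 other genes of iron handling were followed across the colons of mice that had or had not received an agonist of the IL-11 receptor. The 10 genes were Hamp, Hamp2, Hfe, Slc11a2, Cybrd1, Tfrc, Slc40a1, Fth1, Ftl1 and Hmox1, and they held 16 of the 56605 probes on the arrays, where 22911 genes had a symbol. The set was selected on measured values of the contrast described here, so the values of these genes are given as a description and no test of them is read. The data were 5 one-colour Agilent arrays of whole colon, each hybridised with RNA of 1 mouse. The mice were wild-type and of the strain labelled C57BL/B6. In the NT-3N group, 3 mice aged 8 weeks had received NT-3N intravenously and the colon was taken 3 h later. NT-3N is a modified human IL-11 with mutations in a linker region of the protein. The dose is given as 10, in mg in the series' text and in micrograms in the methods of the study. The Control group held 2 mice without treatment, and the age of these mice and the sex of all mice were not given in the sources used here. No vehicle injection was described, so the injection and the agonist cannot be told apart.

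Iron leaves cells through ferroportin, and hepcidin is the peptide hormone that binds ferroportin and has it degraded. Hepcidin is made above all by the liver, where bone morphogenetic proteins acting through SMAD proteins and inflammatory cytokines acting through STAT3 both switch on its gene. In the intestine, iron is reduced and imported on the luminal side, stored in ferritin and exported on the other side, while most cells also take iron from the blood through the transferrin receptor. IL-11 belongs to the cytokines that signal through gp130 and STAT3, as IL-6 does.

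The mouse has a pair of hepcidin genes side by side on chromosome 7, and the bases in front of their starts are shown because they hold the sequence pattern that STAT proteins bind. The sequences are those of RefSeq for the assembly GRCm38.p6, read 5′ to 3′ on the minus strand, and cover the 250 bases upstream of each start. Capitals mark TTCNNNGAA, the pattern of STAT sites, GGCGCC, the core of a BMP-responsive element, and the 6 bases of Hamp2 that line up with the latter.
Hamp, chr7:30944030-30944279: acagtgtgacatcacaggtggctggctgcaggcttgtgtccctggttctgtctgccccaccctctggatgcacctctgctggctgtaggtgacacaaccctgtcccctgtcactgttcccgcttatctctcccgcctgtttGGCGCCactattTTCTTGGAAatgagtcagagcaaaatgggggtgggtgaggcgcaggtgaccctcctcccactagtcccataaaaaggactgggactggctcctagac
Hamp2, chr7:30924182-30924431: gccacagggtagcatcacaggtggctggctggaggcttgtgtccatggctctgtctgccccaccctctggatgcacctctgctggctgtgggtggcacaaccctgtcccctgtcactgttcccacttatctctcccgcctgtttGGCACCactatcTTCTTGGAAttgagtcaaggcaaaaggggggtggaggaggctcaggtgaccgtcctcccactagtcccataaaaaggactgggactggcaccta
Without gaps, the 2 stretches were identical at 227 of 247 aligned bases, or 91.9%. TTCTTGGAA stood in both, with its first base at -97 in Hamp and -94 in Hamp2. GGCGCC began at -109 in Hamp, and the aligned bases GGCACC of Hamp2 carried the substitution G4A, counted from 1 at the 5′ end of the motif with the base of Hamp first. Searched on both strands, TTCNNNGAA lay in 7.02% and GGCGCC in 9.59% of 32851 mouse promoters of the same length, and 0.368% held both. A promoter was listed for 7 of the 10 genes, and of these Hamp and Hamp2 held TTCNNNGAA while Hamp, Cybrd1 and Tfrc held GGCGCC. The loop of the iron-responsive element, CAGTGN, lets iron regulatory proteins bind some of these transcripts. On the sense strand within the first 50 transcribed bases, it was found in 0 of the 7 and in 7.08% of all promoters. Bases further along the transcripts were not searched, so it cannot be read from this that the 7 genes lack the element. These matches describe letters in a window and nothing about binding.

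Hamp, the hepcidin hormone, was seen on the arrays of treated mice and not on those of Control mice. Its single probe read 2.56 and 3.29 in Control replicates 1 and 2, and 4.92, 5.72 and 5.39 in NT-3N replicates 1, 2 and 3, as log2 of quantile-normalised signal. All 3 treated mice lay above both Control mice, with a gap of 1.63 between the nearest arrays. The signal was well above background, by the flag of the scanner software, on 0 of 2 Control arrays and 3 of 3 NT-3N arrays, so the Control level was not measured. The group means were 2.92 ± 0.52 (SD, n = 2) and 5.35 ± 0.40 (SD, n = 3). Set against the lowest signal called well above background on each Control array, which was 3.33 and 3.40, Hamp was 3.95-fold higher with NT-3N. That mark is not a strict limit, since probes not called so can read above it. A probe of Lrp2 read 3.89 on NT-3N replicate 1 without the call, where the mark was 3.69. The fold is therefore approximate and not a lower limit. It was 3.43 without NT-3N replicate 2 and 4.61 without NT-3N replicate 1, the lowest and highest values on leaving out any array. In unscaled processed signal the Control arrays read 5.92 and 10.2, and the NT-3N arrays 28.1, 58.7 and 43.1, which is near the dim end of the array on all of them. Hamp passed the filter on dim probes only through the NT-3N arrays.

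Hamp2, the neighbouring gene, whose part in iron balance is doubtful, was well above background on all 5 arrays. Its log2 signal was 7.32 and 7.50 in Control mice and 7.69, 7.82 and 8.38 in NT-3N mice. The groups did not overlap, but the gap was 0.19 and NT-3N replicate 3 stood above the other treated mice. The difference was 0.55 ± 0.28 (SE, 2 against 3 mice) on the log2 scale, or 1.47-fold, and it was 0.34 without that mouse. The files hold no probe sequences, and how far RNA of one hepcidin gene binds the probe of the other was not tested.

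**Figure D1:**
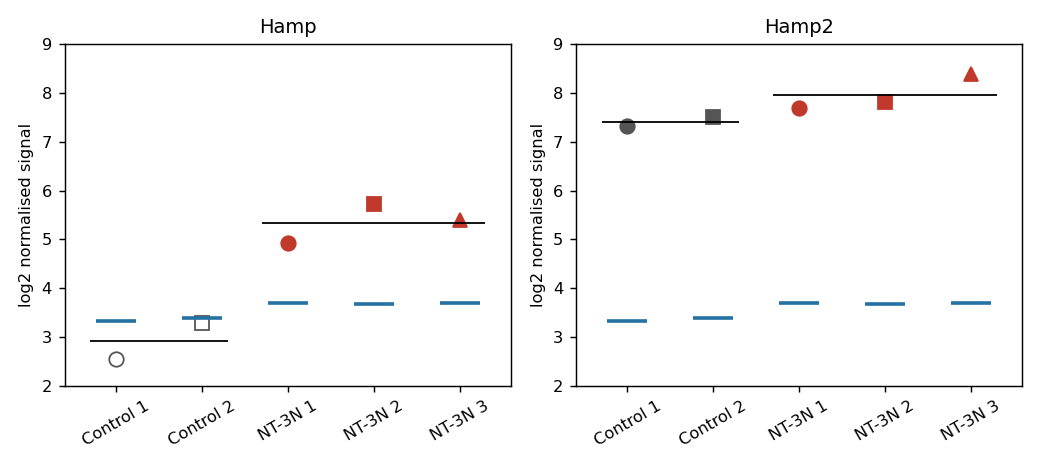
Log2 normalised signal of the Hamp and Hamp2 probes on each of the 5 arrays, with Control in grey and NT-3N in red, circle, square and triangle for replicates 1, 2 and 3, and black lines for group means. Open points were not well above background and blue dashes mark the lowest signal called well above background on that array. Hamp lay below that mark on both Control arrays and above it on all 3 NT-3N arrays, whereas Hamp2 was measured on all 5.

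Hfe, the haemochromatosis protein that binds the transferrin receptor and takes part in hepcidin control in liver, showed a small difference. Its log2 signal was 9.05 and 9.22 in Control mice and 9.27, 9.53 and 9.54 in NT-3N mice. NT-3N replicate 1 lay only 0.049 above the higher Control mouse, so the groups barely parted. The difference of the means was 0.31 ± 0.13 (SE), or 1.24-fold.

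The genes of iron import did not separate the groups. Slc11a2, the divalent metal transporter that carries iron into the enterocyte, had 4 probes, and the brightest read 10.07 and 10.21 in Control mice and 9.74, 10.02 and 10.21 in NT-3N mice. NT-3N replicate 1 was low and the other treated mice lay within or near the range of the Control mice. The log2 differences of the 4 probes were -0.15 ± 0.18, -0.097 ± 0.063, 0.26 ± 0.26 and 0.034 ± 0.070 (SE), so their signs differed, and the groups overlapped on each. The probe at 0.26 is assigned to another transcript of the gene than the other 3.

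Cybrd1, the duodenal ferric reductase, read 6.79 and 6.97 in Control mice and 6.53, 7.17 and 6.82 in NT-3N mice. The treated mice spread on both sides of the Control mice, with a difference of -0.040 ± 0.25 (SE). A second Cybrd1 probe was not well above background on any array. Tfrc, the receptor that takes up transferrin-bound iron, read 11.39 and 11.45 in Control mice and 11.16, 11.83 and 11.18 in NT-3N mice. NT-3N replicate 2 was high and the other treated mice were below both Control mice. The second Tfrc probe, at 10.51 and 10.18 against 10.25, 10.80 and 10.00, was also highest in NT-3N replicate 2. The differences were -0.031 ± 0.28 and 0.0037 ± 0.33 (SE), and without NT-3N replicate 2 that of the brighter probe was -0.25.

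Slc40a1, which encodes ferroportin, the iron exporter and the target of hepcidin, differed little in size but with tight replicates. Its log2 signal was 12.86 and 12.84 in Control mice and 13.02, 13.09 and 13.06 in NT-3N mice. Every treated mouse lay above both Control mice, by a gap of 0.16, and the SD within groups was 0.0075 and 0.038. The difference was 0.21 ± 0.028 (SE), or 1.15-fold, and stayed between 0.19 and 0.23 on leaving out any array. That SE rests on the small spread of these few arrays, and the limma SE, which draws on other features, was larger at 0.073. The arrays measure transcript, not the protein that hepcidin acts on.

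The ferritin genes, whose subunits form the shell that stores iron, overlapped between groups. Fth1, the heavy chain, read 17.46 and 17.58 in Control mice and 17.69, 17.47 and 17.37 in NT-3N mice, a difference of -0.011 ± 0.13 (SE). Ftl1, the light chain, read 17.54 and 17.62 in Control mice and 17.67, 17.50 and 17.50 in NT-3N mice, a difference of -0.027 ± 0.079 (SE). On both, NT-3N replicate 1 was the highest of the 5 arrays. The second Ftl1 probe, at 14.82 and 15.12 against 14.96, 14.80 and 14.67, gave -0.16 ± 0.15 (SE). Ferritin genes have near-identical processed copies in the mouse genome, so the source of this signal is uncertain.

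Hmox1, the inducible heme oxygenase that frees iron from heme, was higher in every NT-3N mouse than in either Control mouse. Its log2 signal was 9.04 and 8.90 in Control mice and 9.37, 9.65 and 9.59 in NT-3N mice. The gap between the groups was 0.33, more than the range within either. The difference was 0.57 ± 0.12 (SE), or 1.48-fold, between 0.50 and 0.66 on leaving out any array.

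**Figure D2:**
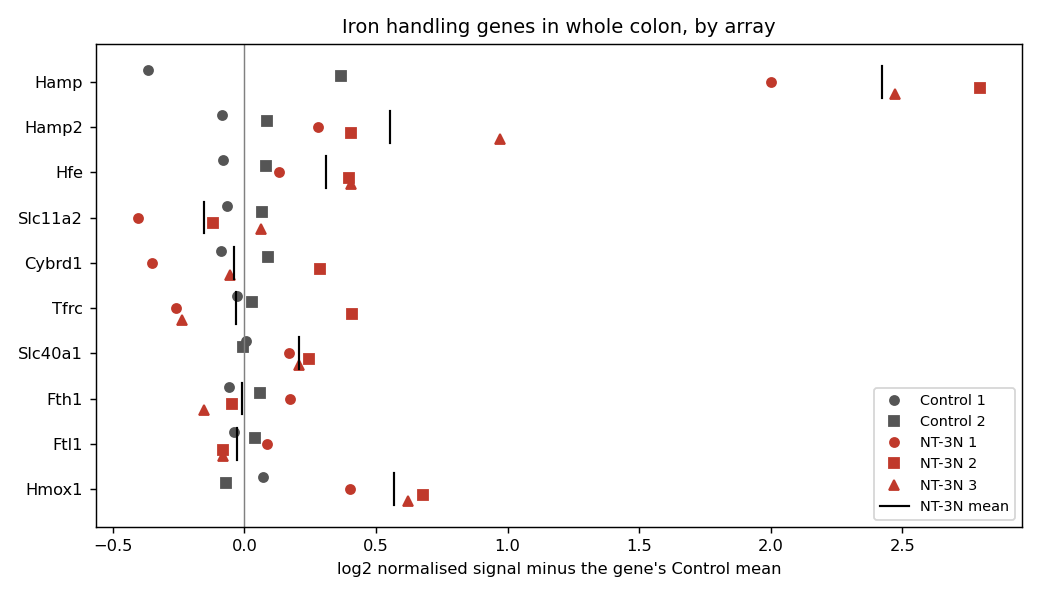
Log2 normalised signal of the brightest probe of each of the 10 genes on each array, minus the mean of the 2 Control arrays of that gene. Control is grey and NT-3N red, with circle, square and triangle for replicates 1, 2 and 3 and a black tick for the NT-3N mean. Hamp stands at 2.42 from Control values that were not well above background, Hmox1 and Hamp2 near 0.57 and 0.55, and the import and ferritin genes scatter around 0.

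Of the 10 genes, 5 did not overlap between the groups and were higher with NT-3N (Hamp, Hamp2, Hfe, Slc40a1 and Hmox1) and 0 were lower, where 13.5% and 14.8% of all 32917 features tested did so. With median scaling, 4 of the 10 did not overlap in that way. In the limma fit over all features, 0 of the 10 had an adjusted p under 0.05, against 0.143% of features. At an unadjusted p under 0.05, 4 were higher (Hamp, Hamp2, Slc40a1 and Hmox1) and 0 lower, against 4.95% and 4.67% of features. Since the genes were chosen with this contrast in view, nothing is read from these counts. All 10 passed the filter on dim probes, 9 of them well above background on all 5 arrays. The median difference over all features was -0.019 on the log2 scale.

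**Figure D3:**
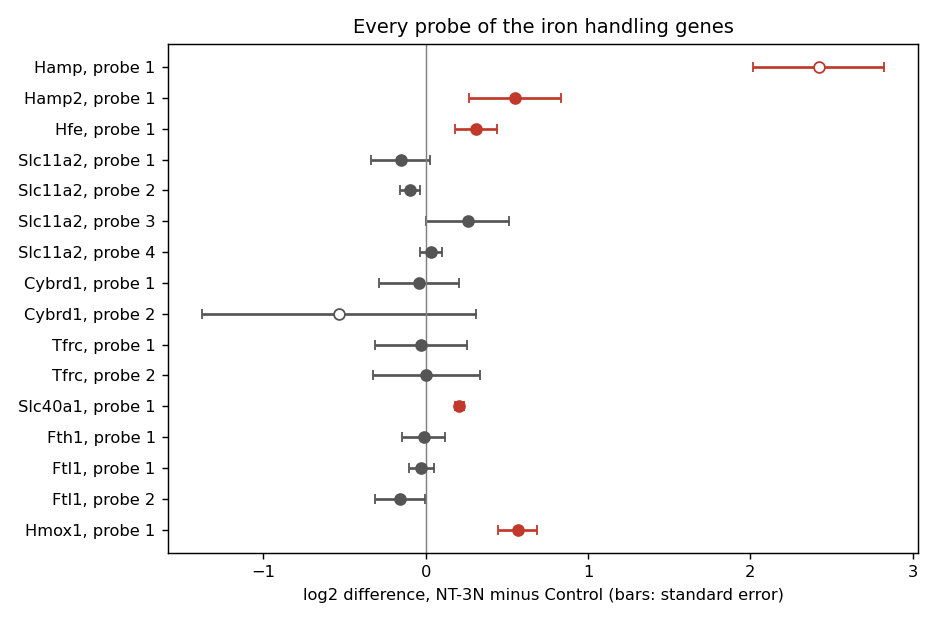
Log2 difference, NT-3N minus Control, of each of the 16 probes, with bars of 1 SE from the spread of 2 and 3 arrays. Red marks probes whose groups do not overlap, and open points the Hamp probe, not well above background in Control mice, and the second Cybrd1 probe, not well above background on any array. Probes of Slc11a2 lie on both sides of 0, from -0.15 to 0.26.

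Other tissue in the dissected colon differed between mice rather than between groups for some markers. All 8 markers of colon epithelium were well above background, with a summed normalised signal on the linear scale of 929010 to 932070 in Control mice and 835150 to 972820 in NT-3N mice, and 0 of 8 differed at an unadjusted p under 0.05. The 6 pancreatic acinar markers summed to 26460 and 284 in Control mice and 2286, 322 and 298 in NT-3N mice, so Control replicate 1 and NT-3N replicate 1 stood apart, and 0 of 6 differed. The 5 adipocyte markers were also highest in these 2 mice, with 18658 and 12725 against 2251 to 6051 in the others. The 5 small intestine markers summed to 10983 in NT-3N replicate 1 against 2401 to 4706 in the others, of which Fabp6 gave 8442. Lct read lowest in that mouse and was the 1 marker of the 5 lower at an unadjusted p under 0.05, with 0 higher. The approximate fold of Hamp was 3.89 when Control replicate 1 was left out. That fold uses the marks of 3.33 and 3.40 in place of both Control values. It therefore cannot show whether Hamp depends on that mouse. The recorded log2 difference of Hamp was 2.42 with all arrays and 2.07 when that mouse was dropped. Dropping the first NT-3N mouse instead gave a fold of 4.61 and a recorded log2 difference of 2.65.

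Liver is the main source of hepcidin, and the 7 hepatocyte markers summed to 3887 and 1858 in Control mice and 2452, 2899 and 2595 in NT-3N mice. These ranges overlapped, with the highest value in a Control mouse. The sums came mostly from Ttr and Tat, which gave 1540 and 749 in Control replicate 1. Cyp2e1 gave 1319 in Control replicate 1 and 130 in Control replicate 2. Whether liver RNA had a part in the Hamp signal was not tested. Albumin was dim in all mice, at a log2 signal of 5.51 and 4.47 against 4.79, 5.89 and 5.47, and Fgb, a fibrinogen chain, was not well above background on any array. Of 6 hepatocyte markers tested, 1 (Tat) was higher at an unadjusted p under 0.05 and 0 lower.

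The neutrophil markers, 6 of 7 on the array, summed to 29.6 and 54.6 in Control mice and 527, 137 and 165 in NT-3N mice, and the groups did not overlap. S100a8 and S100a9, the calprotectin subunits, were well above background on 0 of 2 Control and 3 of 3 NT-3N arrays, whereas Cxcr2 and Ngp were not on any. In NT-3N replicates 1, 2 and 3, S100a9 gave 382, 75.2 and 101 of the sum and S100a8 73.8, 19.4 and 35.6. Both passed the filter on dim probes only through the NT-3N arrays. The other neutrophil markers on the array, Mmp8, Retnlg, Cxcr2 and Ngp, each overlapped between the groups. Macrophages, which hold much ferroportin and heme oxygenase, gave sums over 6 markers of 9321 and 8673 in Control mice and 7708, 10671 and 10266 in NT-3N mice, and the groups overlapped. Of those 6, Mrc1 was higher at an unadjusted p under 0.05, by 0.53. The erythroid sum was 5203 and 4829 against 6717, 7417 and 5818, so the groups did not overlap, with Hba-a1 of 4 tested higher by 0.41. Smooth muscle summed to 416920 and 435100 against 311760, 392060 and 365110, with all 5 markers below 0 and Myh11 and Tagln lower at an unadjusted p under 0.05. The part of these cells in the values of Hamp, Slc40a1 and Hmox1 was not tested. In whole colon, fewer cells of a type and less RNA per cell cannot be told apart.

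Beyond these 10 genes, 115 genes of iron biology were taken in 8 lists, of which 110 could be tested. By limma, 15 were higher and 5 lower at an unadjusted p under 0.05, or 13.6% and 4.55% beside the 4.95% and 4.67% of all features, and 2 had an adjusted p under 0.05. The 15 include Il6, which no Control array measured above background, and without it 14 of 109 were higher. Outside the inflammatory list, 9 of 98 were higher and 4 lower. The count of 15 was 8 without NT-3N replicate 2, the count of 5 was 8 without NT-3N replicate 1, and the count of 2 was 4 without NT-3N replicate 1, 1 without either Control mouse and 0 without NT-3N replicate 2 or 3. The median difference over the 110 genes was 0.023. The lists were chosen with earlier results of these data known. These counts, and those of each list below, are therefore a description and nothing is read from them as a test.

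The inflammatory arm of hepcidin control held both genes that passed the adjusted threshold. Of its 12 genes, 6 were higher and 1 lower at an unadjusted p under 0.05, with a median of 0.25. One of the 6, Il6, passed the filter only through the NT-3N arrays, and of the 11 others 5 were higher. Socs3, the feedback inhibitor of this pathway, read 10.63 and 10.11 in Control mice and 12.88, 13.21 and 13.14 in NT-3N mice. It rose by 2.71 ± 0.18 (limma SE; adjusted p = 0.00875). Stat3, the transcription factor of the pathway, rose by 0.74 ± 0.077 (limma SE; adjusted p = 0.0434), and its probes gave 0.74 to 0.88. Treated mice stood clear of Control mice on both genes. In 15 other settings of the fit, Socs3 kept an adjusted p under 0.05 in 10 and Stat3 in 7.

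Inhbb, the subunit of activin B, a ligand that can switch on hepcidin in inflammation, read 7.02 and 6.63 in Control mice and 7.90, 8.64 and 8.35 in NT-3N mice. All treated mice were above the Control mice, with a difference of 1.47 ± 0.24 (limma SE), or 2.77-fold, which missed the adjusted threshold (adjusted p = 0.134). Il6st, which encodes gp130, gave 0.80 (adjusted p = 0.172). Il6, the cytokine best known for raising hepcidin, was well above background on 0 of 2 Control and 2 of 3 NT-3N arrays, at 1.40 and 1.35 against 3.77, 5.41 and 5.24 on the log2 scale, so NT-3N replicate 1 did not measure it either and no fold is given. Its receptor chain Il6ra gave -0.35 on the brighter probe and 0.22 on the other, and -0.064 as the mean of both. Il1b was higher by 0.49 at an unadjusted p under 0.05, and by 0.32 without Control replicate 1. That p held in 2 of 5 fits that each left out an array.

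The BMP-SMAD arm did not move one way. Of its 20 genes tested, 9 were above 0 and 11 below, with a median of -0.053 and 2 higher and 2 lower at an unadjusted p under 0.05. Smad4, the shared partner of receptor-activated SMADs, read 12.88 and 12.57 in Control mice and 13.29, 13.32 and 13.46 in NT-3N mice, a difference of 0.63 ± 0.11 (limma SE; adjusted p = 0.167), and its 4 probes gave 0.29 to 0.74. Gdf15, a distant member of the ligand family, was the other higher gene, by 0.38, with an unadjusted p under 0.05 in 1 of 5 fits that each left out an array. The lower genes were targets of BMP signalling. Id3 read 12.14 and 12.08 in Control mice and 11.49, 11.57 and 11.50 in NT-3N mice, a difference of -0.59 ± 0.082 (limma SE; adjusted p = 0.0865). Smad6, an inhibitory SMAD, read 9.14 and 9.15 in Control mice and 8.44, 8.62 and 8.78 in NT-3N mice, a difference of -0.53 ± 0.13 (limma SE; adjusted p = 0.301). Both kept the sign and an unadjusted p under 0.05 in 15 of 15 other settings.

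Other readouts of the BMP arm were less clear. Id1 gave -0.34, with NT-3N replicate 2 at 14.37 inside the Control range of 14.31 to 14.60. Smad7 gave -0.17 and neither passed. Bmp6, the ligand that reports iron stores in liver, read 6.77 and 6.74 in Control mice and 6.04, 7.29 and 6.83 in NT-3N mice, so the treated mice lay on both sides. Tfr2, the second transferrin receptor, gave -0.47 and overlapped. Hjv and Tmprss6, the co-receptor and the protease that set hepcidin in liver, were not well above background on any array.

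**Figure D4:**
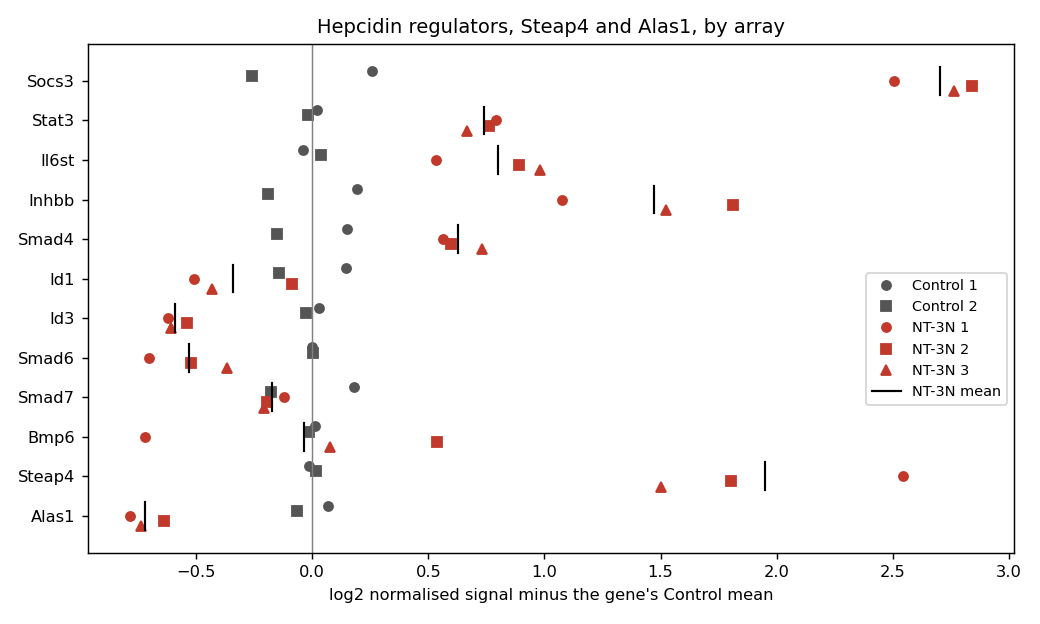
Log2 normalised signal of regulators of hepcidin and of Steap4 and Alas1 on each array, minus the mean of the 2 Control arrays of that gene. Control is grey and NT-3N red, with circle, square and triangle for replicates 1, 2 and 3 and a black line for the NT-3N mean. Socs3, Stat3, Il6st, Inhbb and Smad4 lie to the right in all 3 treated mice, Id3, Smad6 and Alas1 to the left, and Bmp6 on both sides.

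Among genes of iron uptake, reduction, oxidation and carriers, 4 of 18 were higher and 1 lower at an unadjusted p under 0.05, with a median of 0.035. The higher genes were Steap4, Steap1, Steap2 and Lcn2. Steap4, a metalloreductase, read 4.71 and 4.74 in Control mice and 7.27, 6.53 and 6.23 in NT-3N mice. The difference was 1.95 ± 0.32 (limma SE), or 3.86-fold (adjusted p = 0.13), and NT-3N replicate 1 was the highest. It was 0.91 with normexp. Of its relatives, Steap1 gave 0.51 (adjusted p = 0.393) and Steap2 0.43, whose unadjusted p stayed under 0.05 in 4 and 1 of 5 fits that each left out an array. Steap3 overlapped between the groups, at 0.0025. Lcn2, the lipocalin that binds iron-carrying siderophores, read 7.77 and 8.06 in Control mice and 9.41, 8.77 and 8.66 in NT-3N mice, a difference of 1.03 ± 0.24 (limma SE; adjusted p = 0.266), and its probes gave 1.03 and 1.94. Slc22a17, a receptor for that protein, was the lower gene at -0.55, or -0.36 without NT-3N replicate 1, with an unadjusted p under 0.05 in 10 of 15 other settings. The zinc and iron importer Slc39a14 gave -0.13 and did not pass.

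Iron sensing and storage held 1 of 13 genes higher and 0 lower, with a median of 0.031. The higher gene was Hif1a, a subunit of the hypoxia-inducible factor, at 0.68, but the gap between the groups was 0.065 and the difference was 0.42 without Control replicate 2. The iron regulatory proteins Aco1 and Ireb2 gave 0.098 and 0.021, and Ncoa4, the receptor for ferritin breakdown, gave 0.031 with probes of opposite sign. None of these 3 passed. In heme and haemoglobin handling, 2 of 12 were higher and 0 lower, namely Bach1, the repressor of Hmox1, at 0.29 and Blvra, a biliverdin reductase, at 0.23. In fits that each left out an array, the unadjusted p stayed under 0.05 in 3 of 5 for Bach1 and 0 of 5 for Blvra. The haemoglobin-binding protein haptoglobin, Hp, singled out after its values were seen, ranged from 6.23 to 8.21 in Control mice and from 6.77 to 10.64 in NT-3N mice, and the groups overlapped.

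Heme synthesis held 1 lower and 0 higher of 12 genes. The lower gene was Alas1, the enzyme of the first step, which read 15.29 and 15.16 in Control mice and 14.44, 14.59 and 14.49 in NT-3N mice. All treated mice were below both Control mice, and the difference was -0.72 ± 0.081 (limma SE), or 1.65-fold lower (adjusted p = 0.0521). Its 3 probes gave -0.92 to -0.72, and the adjusted p was under 0.05 in 4 of 15 other settings. Of 14 genes of iron-sulphur clusters, 0 were higher and 0 lower, with a median of 0.054 and a range of -0.15 to 0.26. Of 9 targets of NRF2, the transcription factor of the oxidant response that also acts on Hmox1, 0 were higher and 0 lower, with a median of -0.033, and Nqo1 gave 0.066.

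**Figure D5:**
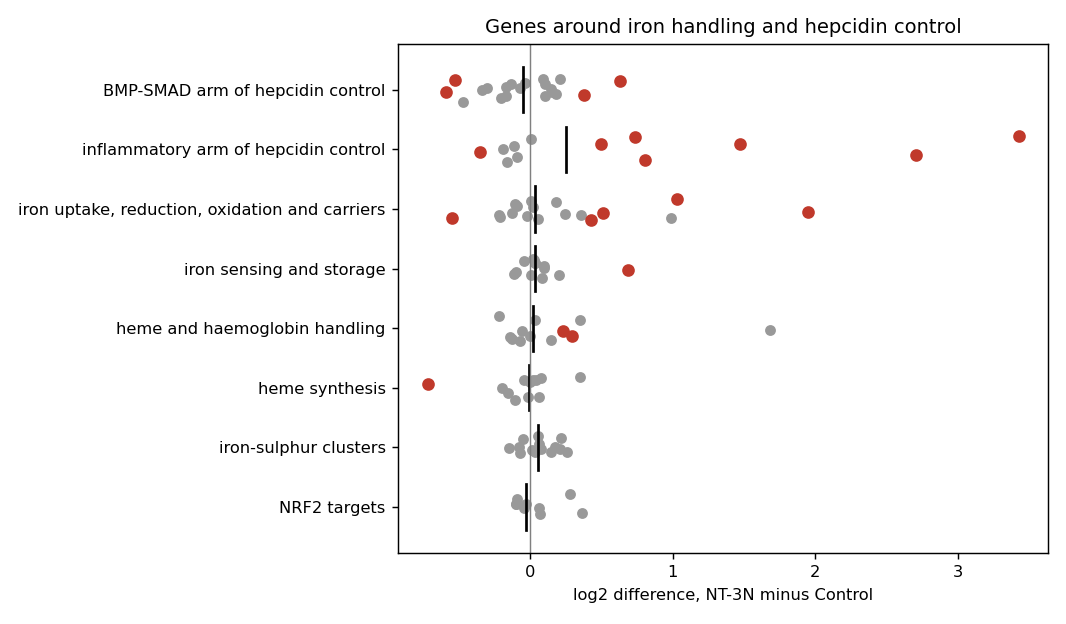
Log2 difference, NT-3N minus Control, of the 110 tested genes of the 8 lists, 1 point per gene and a black tick for each list's median. Red points had an unadjusted p under 0.05 by limma. The inflammatory list has its median at 0.25 and holds Il6 at a fitted 3.43, red although its Control values were not well above background, and the other medians lie between -0.053 and 0.054.

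Of 92 genes of the lists with a promoter, 7 held TTCNNNGAA and 21 held GGCGCC in the window described for the hepcidin genes. The share of all promoters was 7.02% with TTCNNNGAA and 9.59% with GGCGCC. A gene with several promoters counted if any of them matched, so counts of genes and shares of promoters are not of the same unit. Of the 7, Socs3, Steap4 and Steap2 were higher and Alas1 lower at an unadjusted p under 0.05 by limma, while Lrp1, Txnrd1 and Slc7a11 did not pass. Of all tested list genes 13.6% were higher and 4.55% lower, and of all features 4.95% and 4.67%. Steap2, Alas1 and Txnrd1 have several listed promoters, and not all of them held TTCNNNGAA. The 7 genes are few and were not tested as a set, so nothing is read from these counts.

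The genes whose profile over the 5 arrays was nearest that of Hamp, by the root mean square difference of log2 signal centred on each gene's own mean, were Rasl11a at 0.29, Il33 at 0.31, Egr1 at 0.33, Alkal1 at 0.34 and Osmr at 0.34, among 17567 genes compared. Osmr encodes the receptor chain for oncostatin M that pairs with gp130, Il33 an alarmin cytokine and Egr1 an immediate early transcription factor. Osmr read 8.92 and 8.85 in Control mice and 10.80, 11.08 and 11.05 in NT-3N mice. Like the Hamp probe, that of Alkal1 stood out from background on no Control array. The 5 arrays form 2 groups, so genes with a like difference between the groups score as alike. Both Control values of Hamp were not well above background, so its profile is measured only on the NT-3N arrays and the order of these genes is a description of recorded signal.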

How the data were processed

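RNA of whole colon from 2 Control and 3 NT-3N mice was labelled with Cy3 and hybridised to 5 Agilent arrays, which shared 1 slide and 1 scan time. The authors extracted the spots with Feature Extraction 11.0.1.1, as the submitters' processing notes give it, and the deposited scanner files hold a background-subtracted, detrended intensity per spot, not scaled between arrays. The authors also deposited a table of quantile-normalised log2 values, used as an alternative. It gives no value for the Hamp probe.

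Control spots and 69 to 184 outlier spots of 59305 per array were left out, 0 spots were saturated, and 70.6% to 73.1% of probes were well above background. Processed signal was log2-transformed, spots of a probe averaged and arrays quantile-normalised. Features were probes flagged well above background on 2 arrays or more, with a value on both Control and at least 2 NT-3N arrays, and a gene was its brightest probe by mean. RefSeq accessions of GRCm38.p6 named 32994 of 56605 probes, and 17942 of 32917 features. The array design refers to another build, so coordinates are given only for RefSeq promoters.

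Groups were compared with limma 3.58.1 (lmFit and eBayes with trend, two-sided, Benjamini-Hochberg over all features) in R 4.3.3. The fit was run on data simulated from its own model, which does not test how well these arrays follow that model. The local-pooled-error test of the methods was not run, for want of its package. The genes described, the lists and the naming rule were chosen with earlier results of these data known. Named from the lists were 14 genes whatever their values, and the up to 8 higher and 8 lower with the smallest unadjusted p under 0.05 among those well above background on all arrays. Other genes named were chosen after their values were seen. The fold of Hamp puts the lowest signal called well above background on each Control array in place of its lower Control values. An SE not named as limma SE comes from the arrays of that probe alone. Each array is a separate mouse, and the number of arrays limits the precision.

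Alternatives were other scaling, normexp with an offset of 50, the deposited values, other filters, the mean of probes, no trend, array weights, a replicate block and leaving out each array. The files hold no mean spot signal, so normexp was run on the median, chosen after seeing the data. The replicate numbers were not taken to pair mice. Deviations of same-numbered mice from their group means correlated at 0.13 and 0.036. With 2 Control mice their deviations mirror each other, so these values cannot settle whether mice were paired.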

Additional observations from a re-analysis of the deposited data

How the results depend on the processing

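The sign of the difference of Hamp, Hamp2, Hfe, Slc40a1 and Hmox1 was the same under every alternative that gave a value. Hamp was 0.63 with normexp, whose offset compresses dim signal, and otherwise up to 2.60, or 2.07 to 2.80 on leaving out an array. Slc40a1 was 0.25 with median scaling. The differences of Slc11a2, Cybrd1, Tfrc, Fth1 and Ftl1 took both signs, between -0.26 and 0.12 over the alternatives other than leaving out an array. Among the 110 list genes, the count higher at an unadjusted p under 0.05 was 11 to 18 (8 to 19 on leaving out an array). The count lower was 3 with the mean of probes and 4 to 8 on leaving out an array. The count at an adjusted p under 0.05 was 0 with no filter on dim probes, 0 with no intensity trend, 0 with the replicate block, 8 with array weights and 0 to 4 on leaving out an array. Over all features, calls numbered 47, but 2 with no filter, 2 with no trend, 176 with array weights, 0 with the replicate block, 116 without Control replicate 2, 84 without NT-3N replicate 1, 31 without Control replicate 1, 1 without NT-3N replicate 2 and 0 without NT-3N replicate 3. The replicate block leaves few degrees of freedom. With the block, Hamp2 was 0.34 and Hfe 0.26. Signal over background limits Hamp, whose Control level was not measured, and the 2 Control mice limit every other value.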
